A study of Mus musculus with 6 samples.

Results

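The collagen gene family was read as all genes whose symbol is Col, digits, a and digits. Of the 21512 genes in the table, 38 met this rule: 9 fibrillar, 6 basement membrane, 6 FACIT (fibril-associated collagens with interrupted triple helices) and 17 other collagens. A further 6 symbols of the mouse names table, Col2a1, Col9a1, Col9a2, Col11a1, Col19a1 and Col26a1, were not analysed here. The samples were whole livers of C57BL/6J mice, all 6 of which received a high-fat diet together with carbon tetrachloride (CCl4) over 12 weeks, which the submitters describe as an accelerated model of MASH (steatohepatitis of metabolic origin) with scarring. Through that period 3 mice were given an anti-PD-1 antibody every 3 days, and 3 mice were given an isotype control antibody on the same schedule. Age and sex are not given in the sources used here, and no liver without diet and CCl4 was compared, so the level of collagen set by the injury itself is not measured. The comparison addresses whether blocking PD-1, an inhibitory receptor of activated T cells, while the injury develops is accompanied by another level of collagen RNA.

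Collagens are secreted proteins whose chains wind into a triple helix, which needs glycine at regular steps, as the first residue of each triplet. Fibrillar collagens (types I, III and V here) build the fibres of scar tissue, type IV forms the meshwork of basement membranes, FACITs decorate the surface of fibrils, and type VI builds beaded filaments between them. In the injured liver, stellate cells and portal fibroblasts that become myofibroblasts are the main makers of types I and III, sinusoidal and other endothelial cells contribute type IV, and hepatocytes make Col18a1, the precursor of endostatin. The repeat that defines the family can be read in the coding sequences of GENCODE release M21 (build GRCm38). The 3 stretches below, 63 bases each, show an uninterrupted fibrillar repeat (Col1a1 on chromosome 11, codons 168 to 188, and Col3a1 on chromosome 1, codons 164 to 184) against a basement membrane chain at the point where its repeat breaks off (Col4a1 on chromosome 8, codons 154 to 174). Capitals mark the glycine codons of the repeat.
Col1a1: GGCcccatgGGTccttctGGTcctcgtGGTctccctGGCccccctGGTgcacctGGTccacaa
Col3a1: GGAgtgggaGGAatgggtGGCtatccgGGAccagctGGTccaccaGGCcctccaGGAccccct
Col4a1: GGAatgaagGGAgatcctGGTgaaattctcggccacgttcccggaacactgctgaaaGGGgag
In Col4a1 the longest run ends here, and the next run of 17 triplets starts after a gap of 10 codons. Over the 9 fibrillar genes the longest uninterrupted run was 216 to 344 triplets long, in a coding sequence with 2 or 3 runs of at least 5 triplets. The 6 type IV genes had 22 to 27 such runs, the longest of 39 to 66 triplets, and the 6 FACIT genes had longest runs of 32 to 113 triplets. The 17 other collagens lay between 28 and 87 triplets. All 38 genes thus carried the repeat, which the rule on symbols did not use. The fibrillar class stood apart by the length of its longest run, while the ranges of the other 3 classes overlapped.

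**Figure D1:**
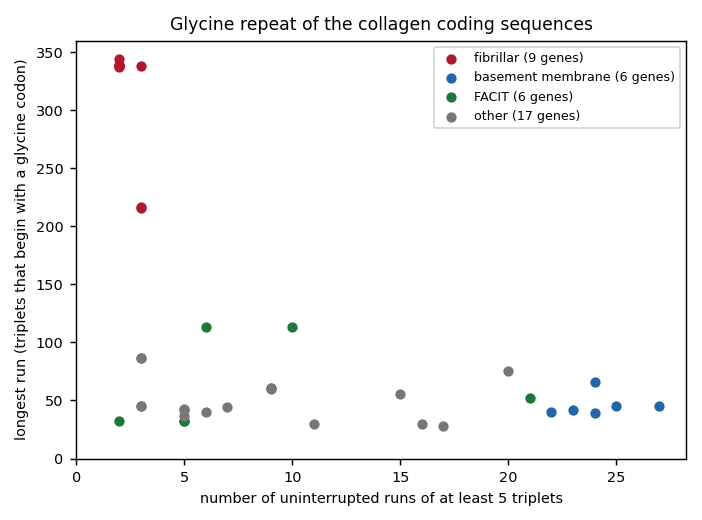
Each point is 1 collagen gene, placed by the number of uninterrupted runs of at least 5 glycine-led triplets in its longest coding sequence (horizontal axis) and by the length of its longest run in triplets (vertical axis), with colour for the class. The 9 fibrillar genes sit at the top left with longest runs of 216 to 344 triplets, and the 6 basement membrane genes at the lower right with 22 to 27 runs.

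Libraries held 15528364 to 20779319 recovered reads. Values are given in units of the deposited table, in which libraries are scaled to each other and 1 read was worth 0.0480 to 0.0666 units. A floor of 3 reads came to 0.144 to 0.200 units and covers counting error only. The hepatocyte marker Alb was abundant in all 6 libraries, at 46646 to 52819 units after anti-PD-1 and 47115 to 69086 units in controls. Anti-PD-1 replicate 1 stood apart in its leukocyte genes: the 7 listed markers summed to 1063 units there, to 215 and 306 units in anti-PD-1 replicates 2 and 3, and to 193 to 360 units in controls. Collagens took 0.195 to 0.270% of all reads after anti-PD-1 and 0.188 to 0.243% in controls, and anti-PD-1 replicate 1 had the highest share. Because the liver was sequenced in bulk, more cells of a collagen-making type and more collagen RNA per cell cannot be told apart.

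No collagen passed the test between anti-PD-1 and isotype control livers. Of the 38 genes, 27 had at least 1 unit in at least 3 libraries and were tested, 7 fibrillar, 6 basement membrane, 3 FACIT and 11 others. With limma on log2(value + 0.5) and Benjamini-Hochberg adjustment over all 13990 tested genes, 0 of 27 had an adjusted p under 0.05 (smallest 0.348), against a background of 0.00715% of all tested genes. At an unadjusted p under 0.05 there were 2 of 27, Col23a1 and Col14a1, both with positive log2 fold changes, where 11.3% of all tested genes lay under that mark, 5.04% with a positive and 6.24% with a negative fold change. edgeR on recovered reads also called 0 (1 unadjusted), DESeq2 0 (2 unadjusted) and limma with the replicate number as a block 0 (1 unadjusted), with smallest adjusted p-values of 0.305, 0.309 and 0.263. Log2 fold changes, anti-PD-1 minus isotype control, were positive for 17 and negative for 10 of the 27 (median 0.064, range -0.39 to 0.81), beside 50.5% positive and a median of 0.0027 over all tested genes. That median turned to -0.044 without anti-PD-1 replicate 1 and to -0.050 without isotype control replicate 1, and it was 0.21, 0.18 and 0.22 without anti-PD-1 replicate 2, anti-PD-1 replicate 3 and isotype control replicate 2. With edgeR and DESeq2 it was 0.14 and 0.16. In 2 of the 27, Col4a1 and Col23a1, all 3 anti-PD-1 values lay above all 3 control values, a pattern found in 7.13% of tested genes, and in 0 did they all lie below, beside 9.98% of tested genes. Col23a1 reached 1 unit in the 3 anti-PD-1 livers alone, so its place in both counts is bound to how it entered the test.

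**Figure D2:**
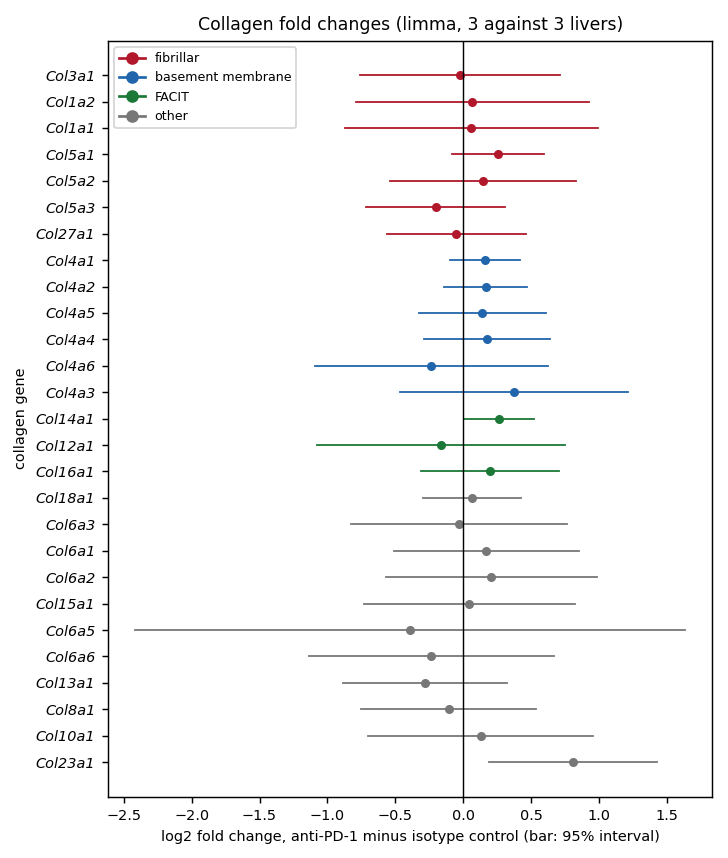
Each row is 1 of the 27 tested collagens, with the limma log2 fold change of anti-PD-1 minus isotype control as a point and its 95% interval, unadjusted for the number of genes, as a bar (3 livers against 3), coloured by class. Only the bars of Col14a1 and Col23a1 leave out 0, and the bars of Col1a1, Col1a2 and Col3a1 reach more than 0.7 to either side. Col23a1 reached 1 unit in the 3 anti-PD-1 livers alone and entered the test through them.

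The abundant fibrillar collagens varied between single livers within both groups. Col1a1, the alpha-1 chain of type I collagen, was at 153, 60.4 and 58.7 units in anti-PD-1 replicates 1 to 3, against 60.4, 121 and 65.9 units in isotype control replicates 1 to 3. Its partner chain Col1a2 was at 206, 84.0 and 87.9 units after anti-PD-1, against 88.8, 162 and 92.45 units in controls. Type III collagen, Col3a1, was at 440.1, 197 and 223 units after anti-PD-1, against 218, 372 and 252 units in controls. In each of these genes anti-PD-1 replicate 1 was the highest liver and isotype control replicate 2 the next, while the other 4 livers lay close together, so the groups overlapped throughout. The log2 fold changes were 0.059 ± 0.40 for Col1a1, 0.064 ± 0.37 for Col1a2 and -0.026 ± 0.32 for Col3a1 (SE, 3 livers each, limma adjusted p = 0.971, 0.965 and 0.983). The 95% interval for Col1a1, unadjusted for the number of genes, ran from -0.87 to 0.99. Changes within that range in either direction remained compatible with the values of these livers. Which way the 3 genes pointed depended on single livers: without anti-PD-1 replicate 1 their log2 fold changes were -0.39, -0.35 and -0.38, and without isotype control replicate 2 they were 0.37, 0.34 and 0.20.

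The ratio of the type I chains hardly moved although their levels did. Col1a1 over Col1a2 was 0.744, 0.719 and 0.668 in anti-PD-1 replicates 1 to 3 and 0.680, 0.746 and 0.712 in controls, a span of 1.12-fold from lowest to highest, beside 2.61-fold for Col1a1 itself. Col3a1 over Col1a1 was 2.87, 3.26 and 3.80 after anti-PD-1 and 3.61, 3.08 and 3.83 in controls, so it was lowest in the 2 livers where both genes were highest. Per kilobase of transcript, the level over all 6 livers was 51.0 units for Col3a1, 22.5 for Col1a2 and 14.6 for Col1a1.

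Type V collagen, which joins type I in mixed fibrils, did not vary as one. Col5a2 was at 48.8, 22.1 and 26.0 units after anti-PD-1 and 22.6, 35.3 and 25.8 units in controls, with the same pair of high livers as type I (log2 fold change 0.15 ± 0.30 SE, limma adjusted p = 0.884). Leaving out anti-PD-1 replicate 1 gave -0.19. Col5a1 was at 34.4, 35.2 and 29.6 units after anti-PD-1, against 23.6, 33.1 and 26.5 units in controls. All its anti-PD-1 livers exceeded isotype control replicates 1 and 3, and isotype control replicate 2 lay among them (0.26 ± 0.15 SE, adjusted p = 0.547). Col5a3 was highest in isotype control replicate 1, at 18.8, 26.2 and 18.2 units after anti-PD-1 and 31.9, 18.6 and 23.4 units in controls (-0.20 ± 0.22 SE, adjusted p = 0.757). Col27a1, a fibrillar chain best known from cartilage, was at 9.85, 15.05 and 10.5 units after anti-PD-1 and 9.44, 15.3 and 12.1 units in controls, with overlapping groups (-0.051 ± 0.22 SE, adjusted p = 0.952). Col3a1 and Col5a2 lie tail to tail on chromosome 1, 24614 bases apart in GRCm38.

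**Figure D3:**
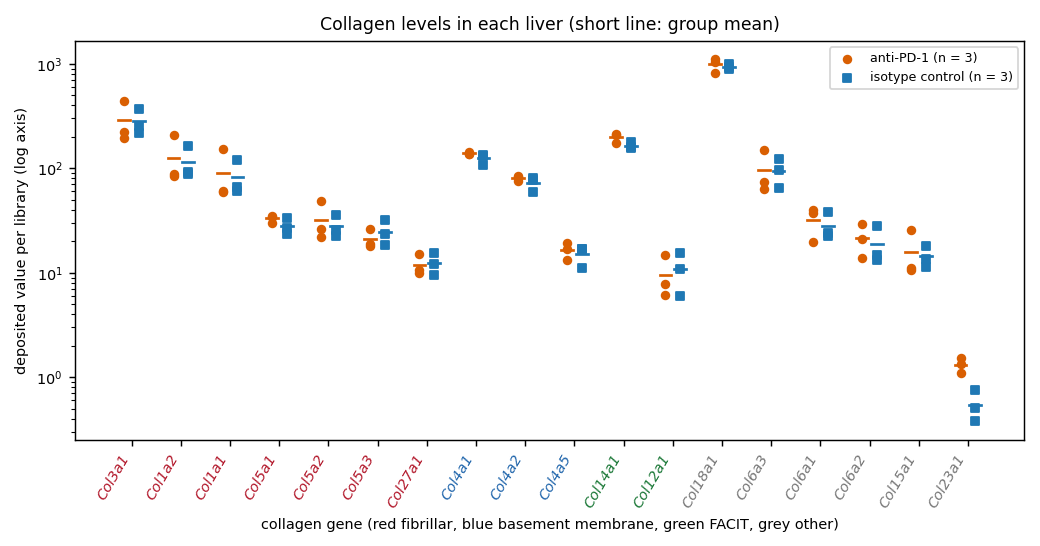
Values of the 18 collagens named with every library, on a log axis in deposited units, with anti-PD-1 livers as orange circles left of isotype control livers as blue squares and a short line at each group mean (n = 3 livers each), gene names coloured by class. The groups overlap for 16 of the 18 genes, with Col4a1 and Col23a1 as the exceptions, and Col18a1 is the most abundant at 809.9 to 1114 units.

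Upstream sequence is shown for 3 fibrillar genes that varied in different ways, Col3a1 (high in anti-PD-1 replicate 1 and isotype control replicate 2), Col5a1 (narrow range) and Col5a3 (high in isotype control replicate 1). The windows are the 250 bases before the RefSeq start in GRCm38.p6, chr1:45311288-45311537 on the plus strand, chr2:27886175-27886424 on the plus strand and chr9:20815068-20815317 on the minus strand, none of which overlaps a GENCODE exon. Capitals mark matches on either strand to 3 promoter motifs, the CCAAT box, the GC box with the letters GGGCGG, and the TATA box with the letters TATAAA.
Col3a1: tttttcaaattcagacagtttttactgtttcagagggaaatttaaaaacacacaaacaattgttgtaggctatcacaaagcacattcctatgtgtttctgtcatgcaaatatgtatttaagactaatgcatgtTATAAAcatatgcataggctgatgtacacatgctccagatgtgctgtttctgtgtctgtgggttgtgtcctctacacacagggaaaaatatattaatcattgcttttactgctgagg
Col5a1: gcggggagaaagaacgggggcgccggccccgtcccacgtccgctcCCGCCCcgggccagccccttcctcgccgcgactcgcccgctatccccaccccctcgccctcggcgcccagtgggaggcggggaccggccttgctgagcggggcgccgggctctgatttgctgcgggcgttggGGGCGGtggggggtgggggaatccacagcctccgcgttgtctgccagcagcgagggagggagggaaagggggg
Col5a3: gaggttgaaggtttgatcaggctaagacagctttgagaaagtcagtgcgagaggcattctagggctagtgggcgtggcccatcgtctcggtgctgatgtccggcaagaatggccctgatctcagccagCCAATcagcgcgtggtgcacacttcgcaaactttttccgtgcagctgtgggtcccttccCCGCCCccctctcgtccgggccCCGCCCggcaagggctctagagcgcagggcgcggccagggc
The Col3a1 window has a GC content of 35.2% and holds 1 TATA box, the Col5a1 window has 76.4% with 2 GC boxes, and the Col5a3 window has 62.8% with 1 CCAAT box and 2 GC boxes. RefSeq windows were at hand for 31 of the 38 collagens (33 windows). Of these, 20 held a GC box, 11 a CCAAT box and 5 a TATA box, which is 60.6, 33.3 and 15.2% of collagen windows beside 32.7, 33.8 and 12.4% of all 32851 windows. A match is a description of these letters and no evidence of binding.

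Basement membrane genes had the smallest median within-group SD of the 4 classes. It was 0.25 on the log2 scale over 6 tested genes, beside 0.48 for 7 fibrillar, 0.29 for 3 FACIT and 0.48 for 11 other collagens. Their sum was not the steadiest. It spanned 1.40-fold over the 6 livers, beside 2.07-fold for fibrillar, 1.37-fold for FACIT and 1.18-fold for the other collagens. Col4a1 was at 144, 136 and 136 units after anti-PD-1, against 108, 134 and 132 units in controls. Col4a2, which pairs with it in the common type IV trimer, was at 84.4, 81.8 and 76.1 units after anti-PD-1, against 59.4, 77.97 and 80.3 units in controls. Isotype control replicate 1 was the lowest liver for both, and the groups did not overlap for Col4a1 but did for Col4a2. The log2 fold changes of 0.16 ± 0.11 for Col4a1 and 0.17 ± 0.13 for Col4a2 (SE, limma adjusted p = 0.617 and 0.668) were 0.063 and 0.028 without isotype control replicate 1. The 2 genes start 21 bases apart on opposite strands of chromosome 8 in GRCm38, and Col4a1 over Col4a2 stayed between 1.67 and 1.79 after anti-PD-1 and between 1.65 and 1.82 in controls. Their first exons overlap, and whether the authors counted by strand is not given in the sources used here, so reads at that overlap are uncertain.

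The other type IV chains, best known from kidney, lung and eye, were scarcer. Col4a5 was at 19.1, 13.3 and 16.97 units after anti-PD-1 and 11.2, 16.9 and 16.9 units in controls, with overlapping groups (log2 fold change 0.14 ± 0.20 SE, limma adjusted p = 0.827, and -0.050 without isotype control replicate 1). Col4a3, Col4a4 and Col4a6 averaged 1.97, 4.08 and 2.03 units after anti-PD-1 and 1.44, 3.51 and 2.62 units in controls. The head-to-head pair Col4a3 and Col4a4, with starts 72 bases apart on chromosome 1, did not keep its ratio as Col4a1 and Col4a2 did: it spanned 2.28-fold over the 6 livers, from counts as low as 17 reads for Col4a3. Col4a5 over Col4a6, whose starts lie 1309 bases apart on chromosome X, spanned 2.56-fold.

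Among the FACITs, Col14a1 had the smallest p of any abundant collagen. It was at 211, 175 and 207 units after anti-PD-1, against 160, 177 and 156 units in controls. Anti-PD-1 replicates 1 and 3 exceeded every control, while anti-PD-1 replicate 2 lay just under isotype control replicate 2. The log2 fold change was 0.26 ± 0.11 (SE, 95% interval 0.0042 to 0.52) with an unadjusted p of 0.0472 and a limma adjusted p of 0.434, so it did not pass. Leaving out single livers gave 0.21 to 0.35. Col12a1, a FACIT of fibrils under tension, was at 14.8, 7.72 and 6.16 units after anti-PD-1 and 5.99, 15.6 and 10.8 units in controls, high in the same pair of livers as type I (-0.17 ± 0.39 SE, adjusted p = 0.903). Without isotype control replicate 1 its fold change was -0.52, and without isotype control replicate 2 it was 0.14. Col16a1 averaged 6.03 ± 0.85 units after anti-PD-1 and 5.30 ± 1.48 units in controls (SD, n = 3 each, limma adjusted p = 0.767).

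Col18a1 was the most abundant collagen in every liver and followed another order. It was at 809.9, 1114 and 1029 units after anti-PD-1, against 927, 883 and 994 units in controls, and made up 32.6, 52.9 and 49.1% of the summed collagen units after anti-PD-1 and 49.7, 38.0 and 48.1% in controls. It was lowest where type I and III collagen were highest, in anti-PD-1 replicate 1, and the next lowest in isotype control replicate 2. The log2 fold change was 0.063 ± 0.16 (SE, limma adjusted p = 0.908). Leaving out anti-PD-1 replicate 2 gave -0.033. Per kilobase of transcript its mean level over the 6 livers was 171.5 units, and that of Col3a1, the next in order, was 51.0 units. Col15a1, the other collagen of this multiplexin class and one found in vascular and myofibroblast basement membranes, behaved like type I instead. It was at 25.6, 10.7 and 11.1 units after anti-PD-1 and 11.3, 18.1 and 13.6 units in controls (0.045 ± 0.33 SE, limma adjusted p = 0.971). Its fold change was -0.35 when anti-PD-1 replicate 1 was left out.

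Type VI collagen shared the liver-to-liver order of type I. Col6a3 was at 151, 63.5 and 73.5 units after anti-PD-1 and 64.8, 122 and 95.2 units in controls. Col6a1 was at 39.9, 19.8 and 37.1 units after anti-PD-1 and 22.7, 37.8 and 23.9 units in controls. Col6a2 was at 29.1, 13.85 and 21.1 units after anti-PD-1 and 13.3, 28.0 and 14.7 units in controls. For all 3, anti-PD-1 replicate 1 was highest and isotype control replicate 2 next, with anti-PD-1 replicate 3 close behind for Col6a1, and the groups overlapped. The log2 fold changes were -0.030 ± 0.34, 0.17 ± 0.29 and 0.21 ± 0.34 for Col6a3, Col6a1 and Col6a2 (SE, limma adjusted p = 0.983, 0.858 and 0.849). Leaving out anti-PD-1 replicate 1 gave -0.41, -0.012 and -0.044. Col6a5, another type VI chain, had the widest range of the tested collagens, 11.5-fold, at 9.61, 2.197 and 1.71 units after anti-PD-1 and 2.70, 19.15 and 1.66 units in controls. Its neighbour Col6a6 on chromosome 9 was at 5.24, 2.26 and 3.16 units after anti-PD-1 and 2.81, 7.30 and 3.17 units in controls.

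**Figure D4:**
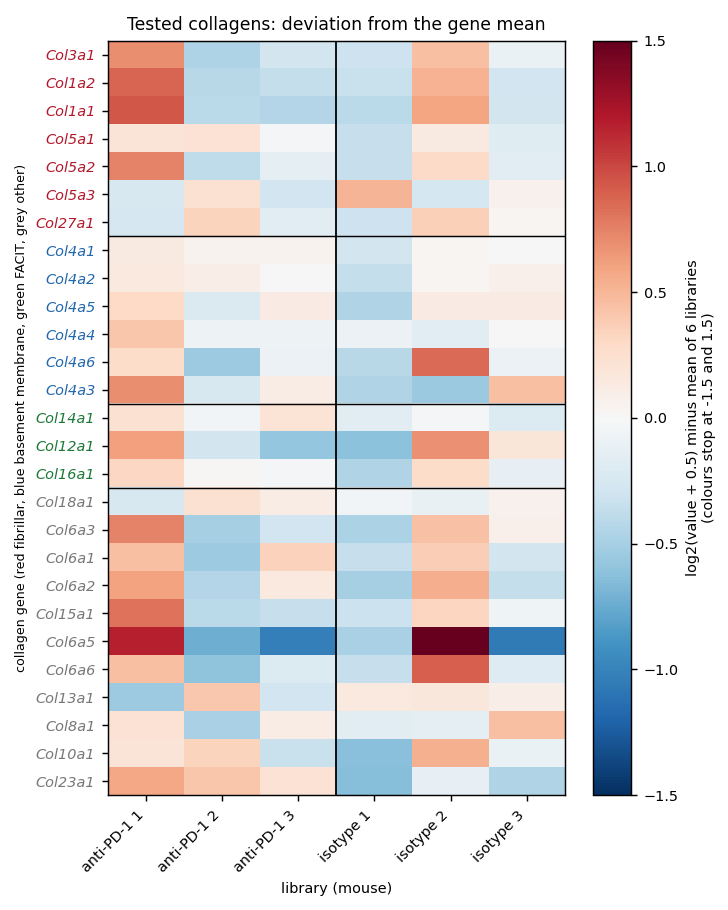
Rows are the 27 tested collagens grouped by class, columns the 3 anti-PD-1 and then the 3 isotype control livers, and colour the log2(value + 0.5) minus the mean of the gene over the 6 livers. Anti-PD-1 replicate 1 and isotype control replicate 2 are red across types I, III and VI, while Col4a1, Col4a2 and Col14a1 stay pale.

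The shared order was found in many members. Anti-PD-1 replicate 1 held the highest value of 16 of the 27 tested collagens, isotype control replicate 2 of 6, anti-PD-1 replicate 2 of 3, isotype control replicates 1 and 3 of 1 each, and anti-PD-1 replicate 3 of 0. The lowest value fell in isotype control replicate 1 for 10 and in anti-PD-1 replicate 2 for 9. In 13 of the 27, namely Col1a1, Col1a2, Col3a1, Col5a2, Col6a1, Col6a2, Col6a3, Col6a5, Col6a6, Col12a1, Col15a1, Col16a1 and Col4a6, the 2 highest livers were anti-PD-1 replicate 1 and isotype control replicate 2. The 13 include 4 fibrillar, 5 type VI, 2 FACIT, 1 multiplexin and 1 basement membrane gene, so the order crossed the structural classes. Within a group, the SD of log2 values had a median of 0.48 over the 27 collagens and 0.20 over all tested genes. These genes share their libraries and are no independent replicates of the pattern, and no test was made on it. The share of all tested genes with the same highest livers was not counted. The order is therefore not shown to be particular to collagens.

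Of the class sums, the fibrillar one alone had the order of anti-PD-1 replicate 1 and then isotype control replicate 2. Within the other collagens, the sum of the 6 type VI genes had it, as did the class without Col18a1 (271 and 244 units). The sum of all 38 collagens had it as well, at 2485 and 2322 units. The 9 fibrillar genes came to 912, 441 and 455 units in anti-PD-1 replicates 1 to 3, against 456, 758 and 499 units in controls, or 603 ± 268 and 571 ± 163 units on average (SD, n = 3 each). The 6 basement membrane genes came to 244 ± 12.5 units after anti-PD-1 and 220 ± 30.3 units in controls, and the 6 FACIT genes to 214 ± 22.6 units after anti-PD-1 and 181 ± 16.6 units in controls. Anti-PD-1 replicate 1 was highest in both of these sums, and isotype control replicate 2 was not next. The 17 other collagens, most of whose units are Col18a1, came to 1081, 1238 and 1187 units after anti-PD-1 and 1053, 1127 and 1157 units in controls, highest in anti-PD-1 replicate 2. The means of the fibrillar sum differed by 31.6 units, less than the SD within either group. Leaving out anti-PD-1 replicates 1, 2 and 3 in turn gave -123, 113 and 105 units, and leaving out isotype control replicates 1, 2 and 3 gave -25.7, 125 and -4.50 units, so the sign rested on single livers.

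Cell type markers were set beside these sums. The myofibroblast genes went with the fibrillar collagens: Acta2, smooth muscle actin, was at 13.9, 4.59 and 4.14 units after anti-PD-1 and 3.02, 15.5 and 6.69 units in controls. Smooth muscle myosin, Myh11, was at 9.22, 5.06 and 4.86 units after anti-PD-1 and 2.48, 17.2 and 3.32 units in controls. Vwf, the von Willebrand factor of endothelium, was at 32.7, 15.6 and 15.3 units after anti-PD-1 and 13.0, 32.9 and 16.7 units in controls. Each was high in anti-PD-1 replicate 1 and isotype control replicate 2. Of the 7 endothelial genes, Pecam1 shared this pair of highest livers with Vwf, and Lyve1, Cdh5, Kdr, Stab2 and Clec4g did not. Pecam1 was at 34.0, 26.5 and 30.3 units after anti-PD-1 and 25.6, 30.5 and 29.1 units in controls. The sinusoidal marker Stab2 was at 116, 144 and 125 units after anti-PD-1 and 144, 151 and 140 units in controls. Stab2 and Clec4g were lowest in anti-PD-1 replicate 1, where the summed list was lowest as well. The 4 listed myofibroblast genes summed to 35.2, 15.98 and 14.1 units after anti-PD-1 and 11.8, 43.6 and 18.3 units in controls, and 1 of them was at 0 in at least 1 liver. The 8 stellate cell genes, none of them at 0 in any liver, were mixed. Their sums, of which Reln is the largest part, were 415 to 449 units after anti-PD-1 and 389 to 412 units in controls. Pdgfrb, the growth factor receptor of stellate cells and other pericytes, was at 47.5, 29.96 and 34.4 units after anti-PD-1 and 26.2, 41.2 and 26.4 units in controls, high in the same pair of livers as type I collagen. Des, Ngfr and Hand2 were also highest in anti-PD-1 replicate 1, but isotype control replicate 2 was not next. Lrat, the enzyme that stores vitamin A as esters, was at 51.3, 46.3 and 50.2 units after anti-PD-1 and 53.0, 47.5 and 43.7 units in controls. All 7 leukocyte markers were highest in anti-PD-1 replicate 1 and had positive log2 fold changes, while isotype control replicate 2, at a sum of 211 units, lay among the low livers. The T cell genes Cd3e and Cd8a lay above all controls in all 3 anti-PD-1 livers. Cd8a was at 11.7, 2.13 and 2.07 units after anti-PD-1 and 0.701, 0.487 and 0.352 units in controls. The adjusted p of Cd3e was 0.391 by limma and 0.0226 by DESeq2, and that of Cd8a was 0.275 by limma and 0.000939 by DESeq2. Both genes reached 1 unit in the 3 anti-PD-1 livers alone and so entered the test through the group in which they were higher. Cd3e was at 7.35, 1.13 and 1.09 units after anti-PD-1, so anti-PD-1 replicate 1 held by far the largest value of both. The 7 genes of portal fibroblasts and mesothelium, none at 0 in any liver, summed to 22.9 to 56.4 units after anti-PD-1 and 23.2 to 38.3 units in controls. Among them Eln was at 16.5, 4.99 and 8.95 units after anti-PD-1 and 7.23, 12.5 and 8.70 units in controls. Eln, Thy1 and Fbln2 had the same pair of high livers as type I collagen, while Cd34, Wt1, Upk3b and Msln did not. The 7 genes of endothelium summed to 365 to 397 units after anti-PD-1 and 383 to 402 units in controls. The 5 of cholangiocytes summed to 77.97 to 135 units after anti-PD-1 and 93.4 to 235 units in controls. The 5 of hepatocytes, of which Alb is the largest part, summed to 56752 to 65243 units after anti-PD-1 and 58634 to 79446.5 units in controls. Hnf4a was at 440, 621 and 638 units after anti-PD-1 and 556, 462 and 499 units in controls. Hnf4a and Apoa1 were lowest in anti-PD-1 replicate 1 and next lowest in isotype control replicate 2, as was Col18a1. Alb, Ttr and Cyp2e1 did not share that order. What part any of these cell types had in the collagen order was not tested.

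**Figure D5:**
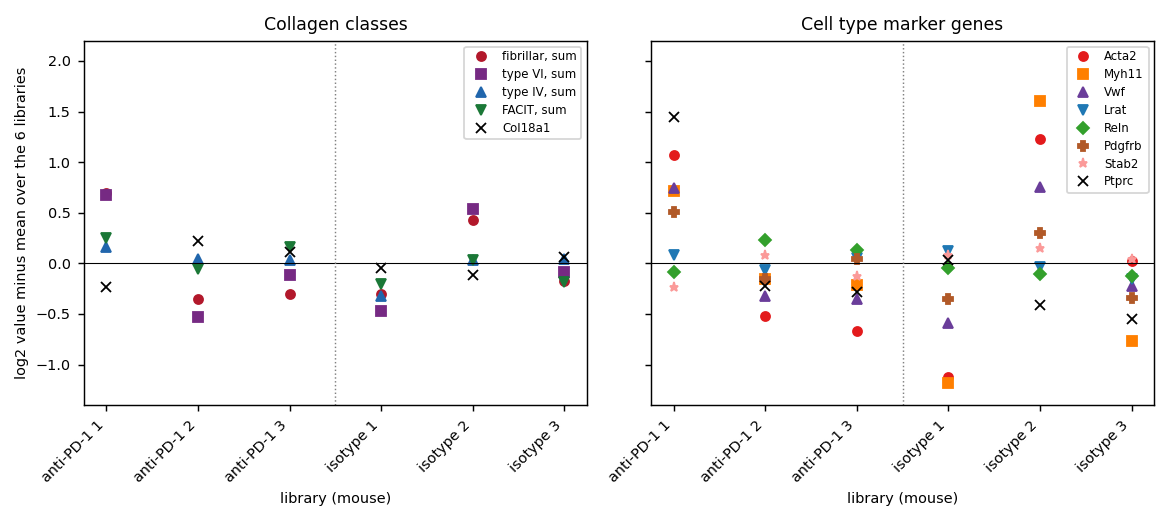
Left, log2 of the summed units of each collagen class, and of Col18a1, minus the mean over the 6 livers. Right, the same for 8 marker genes chosen from the lists, with anti-PD-1 livers left of isotype control livers in both panels. The fibrillar and type VI sums and Acta2, Myh11 and Vwf are high in anti-PD-1 replicate 1 and isotype control replicate 2, as is the stellate gene Pdgfrb. The stellate genes Lrat and Reln and the endothelial gene Stab2 do not share that pair of high livers, and Stab2 is lowest in anti-PD-1 replicate 1.

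Scarce collagens could say little at this depth. Col23a1, a transmembrane collagen, was at 1.54, 1.33 and 1.09 units after anti-PD-1 (32, 20 and 21 reads) and 0.378, 0.758 and 0.503 units in controls (7, 14 and 10 reads). It had the smallest p of the family, with a log2 fold change of 0.81 ± 0.27 (SE, 95% interval 0.19 to 1.42) and a limma adjusted p of 0.348. It reached 1 unit in the 3 anti-PD-1 livers alone and so entered the test through the group in which it was higher, and the fold change was 1.16 with a pseudocount of 0.1 and 0.38 with a pseudocount of 2. Col13a1, another transmembrane collagen, was at 2.21, 4.73 and 2.74 units after anti-PD-1 and 3.88, 3.95 and 3.72 units in controls. The network collagens Col8a1 and Col10a1 averaged 2.49 and 1.22 units after anti-PD-1 and 2.72 and 1.13 units in controls, and an exon of Col10a1 overlaps Nt5dc1 on the opposite strand. The 11 genes under the filter averaged 0.061 to 0.70 units over the 6 livers: Col24a1, Col8a2, Col20a1, Col25a1, Col7a1, Col11a2, Col28a1, Col9a3, Col22a1, Col17a1 and Col6a4. In a fit with no filter 0 of these 11 passed. The 2 with the smallest p there, named after their values were seen, pointed in opposite directions. Col25a1, a transmembrane collagen, had 6, 18 and 12 reads after anti-PD-1 and 3, 7 and 1 reads in controls, with overlapping groups (log2 fold change 0.74, limma adjusted p = 0.498). Col7a1, the anchoring fibril collagen, had 8, 2 and 7 reads after anti-PD-1 and 9, 10 and 14 reads in controls, with no overlap (-0.45, limma adjusted p = 0.544).

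The genes that modify, cleave, crosslink and bind collagen gave 0 calls by limma in 5 lists. Over all tested genes 50.5% were positive and 11.3% had an unadjusted p under 0.05, and the list medians are given for all 6 livers only. Of 15 tested genes for prolyl and lysyl modification, 10 had positive and 5 negative log2 fold changes (median 0.084, smallest adjusted p 0.576, 0 at an unadjusted p under 0.05). Plod2, a lysyl hydroxylase of fibrotic crosslinks, was at 7.93, 2.86 and 6.05 units after anti-PD-1 and 2.37, 4.71 and 3.02 units in controls, while Plod1 averaged 51.1 ± 2.63 units after anti-PD-1 and 46.0 ± 2.49 units in controls (SD, n = 3 each). P3h3 and P4ha2 averaged 4.47 and 2.52 units after anti-PD-1 and 3.43 and 3.20 units in controls. Of 8 chaperone and secretion genes, 2 were positive and 6 negative (median -0.076, smallest adjusted p 0.638, 0 unadjusted). Mia3, which encodes the procollagen export protein TANGO1, averaged 250 ± 31.4 units after anti-PD-1 and 284 ± 42.6 units in controls, and Sec23a, Tmem38b and Klhl12 had log2 fold changes of -0.10, -0.18 and 0.13. All 3 anti-PD-1 values lay above the 3 controls for Plod1 and below them for Sec23a, patterns found in 7.13 and 9.98% of tested genes.

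Among procollagen cleavage and crosslinking genes, Tgm2 had the smallest p. Tgm2, a transglutaminase that crosslinks matrix proteins, was at 261, 233 and 285 units after anti-PD-1, against 162, 152 and 181 units in controls. Its groups did not overlap, with all 3 anti-PD-1 livers above all 3 controls, as in 7.13% of tested genes. Its log2 fold change of 0.65 ± 0.12 (SE) had an adjusted p of 0.207 by limma, 0.221 by edgeR, 0.0622 with the replicate block and 0.000137 by DESeq2, which alone called it, and 1.83% of all tested genes were called by DESeq2. Cd3e and Cd8a also lay higher in all 3 anti-PD-1 livers, the group through which they entered the test. A link between these genes and Tgm2 was not tested. Lox, the lysyl oxidase of collagen crosslinks, was at 11.05, 3.20 and 5.17 units after anti-PD-1 and 2.70, 4.22 and 2.46 units in controls, with anti-PD-1 replicate 2 inside the control range (limma adjusted p = 0.494). Pcolce2, an enhancer of procollagen cleavage, was at 1.10, 0.533 and 0.776 units after anti-PD-1 and 1.89, 1.14 and 1.76 units in controls (-0.69 ± 0.28 SE, adjusted p = 0.421). All 3 of its anti-PD-1 values lay below all 3 controls, as in 9.98% of tested genes. Adamts14, a procollagen peptidase, averaged 2.42 units after anti-PD-1 and 1.88 units in controls (limma adjusted p = 0.724). Of the 11 tested genes in this list 8 were positive and 3 negative (median 0.25), with 1 in each direction at an unadjusted p under 0.05. Beside them, 50.5% of all tested genes were positive, and 5.04% were higher and 6.24% lower at that mark.

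Of 11 fibril-associated proteoglycans and glycoproteins, 8 were positive and 3 negative (median 0.18, 0 at an unadjusted p under 0.05). Dcn, the fibril-binding proteoglycan decorin, averaged 237 ± 61.6 units after anti-PD-1 and 191 ± 20.5 units in controls, and biglycan, Bgn, was at 196, 102 and 121 units after anti-PD-1 and 106, 133 and 105 units in controls, so its groups overlapped. Fibronectin, Fn1, averaged 2218 ± 340 units after anti-PD-1 and 1940 ± 93.3 units in controls, and periostin, Postn, averaged 22.8 ± 3.93 units after anti-PD-1 and 28.6 ± 6.92 units in controls (SD, n = 3 each). Of 8 collagen receptors, 6 were positive and 2 negative (median 0.20, 1 at an unadjusted p under 0.05). The shares over all tested genes were 50.5% positive and 11.3% at that mark. Itga2, the alpha-2 integrin chain that binds type I collagen, was at 4.85, 4.99 and 4.40 units after anti-PD-1, against 2.48, 3.25 and 2.87 units in controls. Its groups did not overlap, as in 7.13% of tested genes in this direction. The log2 fold change of 0.65 ± 0.18 (SE) had an adjusted p of 0.277 by limma, 0.295 by edgeR and 0.179 by DESeq2. The discoidin domain receptor Ddr2, its relative Ddr1 and the integrin chain Itga10 averaged 23.6, 3.14 and 0.885 units after anti-PD-1 and 19.7, 4.38 and 1.41 units in controls, with limma adjusted p-values of 0.630, 0.573 and 0.512. All 3 anti-PD-1 values of Itga10 lay below the controls, but it reached 1 unit in the 3 controls alone and so entered the test through them.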

How the data were processed

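Ribosomal RNA was depleted and directional libraries were made, per the labels' protocols. Trimmomatic 0.38, RSEM 1.3.0, Bowtie2, edgeR and build GRCm39 appear in the submitters' processing notes, with neither roles nor order. Each deposited value is a normalized signal of a gene in a library. All values (100%) were whole multiples of what 1 read is worth, within 0.001 read, and the scaling in the authors' table equalled TMM (trimmed mean) factors recomputed from the recovered reads. Symbols were found for 21407 of 21512 identifiers. The annotation at hand is GRCm38, so coordinates and sequences are of that build.

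Groups were taken from the sample titles, since the treatment field of 2 anti-PD-1 mice carries another number after PD. The main test was limma 3.58.1 in R 4.3.3, two-sided, with an intensity trend, on log2(value + 0.5). It kept genes that reached 1 unit in 3 or more libraries, and calls needed a Benjamini-Hochberg adjusted p under 0.05. Low genes change less on this scale than in reads. Recovered reads also went into edgeR 4.0.16 and DESeq2 1.42.0. An exact permutation of 3 against 3 cannot go under 0.1. Each library is 1 mouse, and p-values measure the spread between these mice.

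Both groups carry replicate numbers 1 to 3 in the labels, which do not say what a number marks. Deviations of same-numbered libraries were weakly correlated (0.149, 0.135 and 0.251, each over 0.1), beside -0.219 to 0.063 for libraries with different numbers. Same-numbered libraries were therefore treated as paired in a second fit that took the number as a block, while the main fit is unpaired. This pairing was read from the same values that the second fit used, and no label states it.

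Collagens named with every library average at least 10 units or have an unadjusted p under 0.05, and up to 4 genes of smallest p were named per pathway list. Some scarcer collagens are given besides. The members and lists were chosen with earlier results of these data known.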

Additional observations from a re-analysis of the deposited data

How the results depend on the processing

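The count of collagens past the threshold stayed at 0 under every alternative run: pseudocounts of 0.1 and 2, no filter or a filter of 5 units, quantile normalization, median ratio scaling, limma without trend or robust, edgeR, DESeq2, the replicate block and each library left out. The count over all genes was 1 in the main fit, 256 with DESeq2, 40 with the replicate block and 0 to 30 with 1 library left out, the 30 when anti-PD-1 replicate 1 was dropped, the 0 for anti-PD-1 replicate 3 and 2 for isotype control replicate 2. The filter of 5 units gave no value for genes below it, such as Col23a1. The block changed no call of a named gene. Col3a1 and Col6a3 turned positive with edgeR (0.032 and 0.033) and DESeq2 (0.049 and 0.050). Directions otherwise reversed only when 1 library was left out, with log2 fold changes from -0.39 to 0.37 for Col1a1, -0.35 to 0.34 for Col1a2, -0.38 to 0.20 for Col3a1, -0.19 to 0.37 for Col5a2, -0.23 to 0.12 for Col27a1, -0.050 to 0.28 for Col4a5, -0.52 to 0.14 for Col12a1, -0.033 to 0.20 for Col18a1, -0.35 to 0.26 for Col15a1, -0.012 to 0.49 for Col6a1, -0.044 to 0.53 for Col6a2, -0.41 to 0.21 for Col6a3 and -0.034 to 0.43 for Bgn. Tgm2 passed with DESeq2 alone (0.000137), and its adjusted p ranged up to 0.680. The cause was not tested. With 3 livers a group and a within-group SD near 0.48 on the log2 scale, small collagen changes could not be seen, and depth limited the genes under 1 unit.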
